A study of Mus musculus with 24 samples.

Results

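Nucleolar genes of ribosome biogenesis were followed through tumour cells and T cells in a study of the RNA demethylase gene Fto. The list of 40 genes, given by symbol, was looked up in the 2 RNA count tables, each of 24421 genes, and in the 3 lists of m6A peaks. All 40 were found and all 40 passed the expression filter in both tables. They comprise 3 subunits of RNA polymerase I, 3 proteins of box C/D small nucleolar ribonucleoproteins (snoRNPs), 4 proteins of box H/ACA snoRNPs, 6 abundant nucleolar proteins and regulators, 12 assembly factors of the small ribosomal subunit and 12 of the large subunit.

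Ribosomes are begun in the nucleolus, where RNA polymerase I transcribes the ribosomal RNA precursor. Box C/D snoRNPs methylate that precursor and box H/ACA snoRNPs convert chosen uridines to pseudouridines, while assembly factors fold it, cut it and load it with ribosomal proteins. In T cells this machinery is known to be built up when naive cells are activated and prepare to divide, and in tumour cells it is known as a target of the transcription factor MYC.

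The T cells were naive CD8+ cells of OT-I mice on a C57BL/6 background, whose T cell receptor recognises an ovalbumin peptide. They were cultured for 8 hours with B16-OVA melanoma cells in medium with IL-2 and then sorted. Their 6 libraries came from cells set beside the knockdown lines shFto-1 (n = 2) and shFto-2 (n = 2) or beside shNC cells (n = 2), whose hairpin serves as the control. B16-OVA is a C57BL/6 melanoma line that carries ovalbumin, and all lines were kept under puromycin. Tumour cell RNA was sequenced from shFto (n = 3) and shNC (n = 3) cells, and tumour cell chromatin was profiled by ATAC-seq in shFto (n = 3) and shNC (n = 3) cells. Single m6A antibody libraries came from shFto cells in DMSO, from shNC cells given 5 µM Dac51, a small-molecule inhibitor of FTO, and from shNC cells in DMSO, with treatment for 48 hours. The labels of the tumour RNA, ATAC and m6A samples give shFto without saying which line it was. They also do not say whether libraries came from separate cultures or mice, so p-values measure the spread between libraries, which may be technical.

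Libraries held 5166653 to 13066355 counts beside shFto lines and 2628158 and 6567685 beside shNC cells for T cells, and 11152404 to 19665589 (shFto) and 13413981 to 17406625 (shNC) for tumour cells. The least counted of the 40 genes still had 71 counts in the shallowest library. Fto itself was at 31.2 ± 2.65 CPM (counts scaled to a common library size) in shFto tumour cells and 102.5 ± 9.32 CPM in shNC tumour cells (SD, n = 3 each). In T cell libraries the 9 melanoma markers summed to 1709 to 1973 CPM beside shFto lines and 1332 and 1719 CPM with shNC cells, against 18329 to 23998 CPM in the tumour libraries. Of these 9, Pmel, Tyr and Tyrp1 were higher beside shFto lines by edgeR's quasi-likelihood test and 0 were lower. Mlana had a log2 fold change of -0.25 (edgeR adjusted p = 0.0643) and was called lower by DESeq2 and limma-voom, and the median of the 9 was 0.14, or -0.03 with library totals. The 10 CD8 T cell markers summed to 3424 to 4011 CPM beside shFto lines and to 4373 and 4558 CPM with shNC cells. By edgeR, 1 of them rose (Cd5) and 8 fell, where 20.3% of the 12824 genes tested in T cells rose and 12.7% fell. The 14 markers of other immune cells summed to 9.08 to 16.8 CPM in all 6 T cell libraries. The part of tumour RNA and of the T cell markers' fall in the values of the nucleolar genes was not tested.

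In CD8 T cells all 40 nucleolar genes rose beside the shFto lines averaged, by edgeR's quasi-likelihood test at an adjusted p under 0.05, where 20.3% of the 12824 tested genes did so. Their median log2 fold change was 1.12, against -0.01 over all tested genes. The rises ran from 0.60 for Nop10 to 1.51 for Bysl. Called rises of at least 2-fold made up 30 of the 40, and 592 of the 12824 tested genes had one. For each of the 40 genes all 4 libraries beside shFto lines lay above both libraries beside shNC cells, an arrangement found in 28.2% of all tested genes. Their summed level was 26418 and 27558 CPM with shFto-1 cells, 33433 and 35937 CPM with shFto-2 cells, and 13659 and 13570.0 CPM with shNC cells. In bulk libraries, fewer cells of a type and less RNA per cell cannot be told apart.

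**Figure D1:**
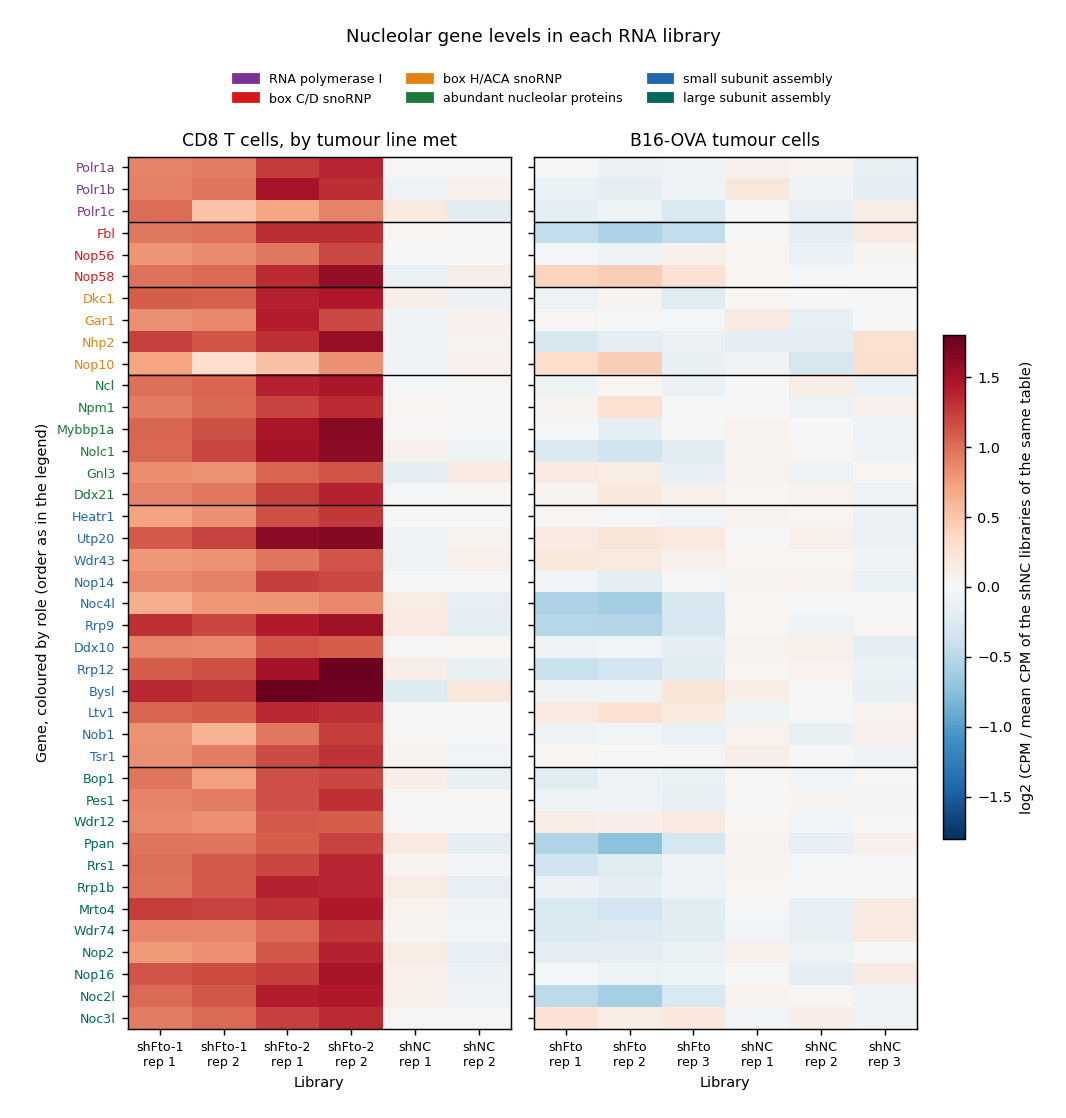
Level of each of the 40 genes (rows, coloured by role) in each RNA library (columns), as the log2 ratio of its CPM to the mean CPM of the shNC libraries of the same table. Red marks higher and blue lower levels; T cell libraries beside shFto lines are red for all 40 genes, while tumour cell libraries of shFto cells are pale, with a few blue rows such as Fbl and Noc4l.

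The subunits of RNA polymerase I rose together in T cells. Polr1a (chr6:71909053-71979435, GRCm38.p6), the largest catalytic subunit, was at 269 and 276 CPM with shFto-1 cells, 348 and 376 CPM with shFto-2 cells, and 147 and 143 CPM with shNC cells. Every library beside a shFto line was thus well above both shNC libraries, and the log2 fold change was 1.12 ± 0.09 (SE; adjusted p = 3.39e-05, edgeR). Polr1b, the second-largest subunit, stood at 123 and 129 CPM with shFto-1, 185 and 166 CPM with shFto-2, and 62.1 and 69.8 CPM with shNC cells (log2 fold change 1.16 ± 0.10, adjusted p = 4.75e-05, edgeR). Polr1c, a subunit shared with RNA polymerase III, rose less, by a log2 fold change of 0.83 ± 0.17 (adjusted p = 0.00411, edgeR), and its rise missed the threshold without shNC replicate 2 (adjusted p = 0.0554).

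All 3 box C/D genes rose. Fbl (chr7:28168893-28179269), which encodes fibrillarin, the methyltransferase of these particles, was at 262 and 267 CPM with shFto-1, 341 and 340.4 CPM with shFto-2, and 138 and 132 CPM with shNC cells. The 2 libraries of each line lay close together, and the log2 fold change was 1.15 ± 0.08 (adjusted p = 2.94e-05, edgeR). Nop58, a core scaffold protein, was at 571 and 587 CPM with shFto-1, 736 and 870.1 CPM with shFto-2, and 267 and 312 CPM with shNC cells (log2 fold change 1.23 ± 0.10, adjusted p = 3.93e-05, edgeR). Its partner Nop56 rose by 0.95 on the log2 scale.

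Among the box H/ACA genes, Dkc1, the pseudouridine synthase, was at 324 and 320.0 CPM with shFto-1, 403 and 415 CPM with shFto-2, and 164 and 141 CPM with shNC cells (log2 fold change 1.26 ± 0.09, adjusted p = 3.06e-05, edgeR). Nhp2, a core protein of the particle, was at 208 and 193 CPM with shFto-1, 219.8 and 262 CPM with shFto-2, and 84.3 and 92.0 CPM with shNC cells. Its log2 fold change was 1.31 ± 0.11 (adjusted p = 3.76e-05, edgeR), the highest of these 4 genes. Gar1 rose by 1.06 on the log2 scale. Nop10, the smallest change of the 40 genes, was at 80.8 and 60.6 CPM with shFto-1, 71.2 and 87.5 CPM with shFto-2, and 46.8 and 51.9 CPM with shNC cells (log2 fold change 0.60 ± 0.15, adjusted p = 0.0126, edgeR). Without shNC replicate 1 its adjusted p was 0.0751.

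The abundant nucleolar proteins followed the same direction. Ncl (chr1:86344719-86359455) encodes nucleolin, which binds nascent ribosomal RNA. It was at 9549.6 and 9918 CPM with shFto-1, 12468 and 13163 CPM with shFto-2, and 4730.5 and 4852 CPM with shNC cells. The libraries fell into 3 separate ranges by the line met, and the log2 fold change of the lines' mean was 1.22 ± 0.06 (adjusted p = 1.75e-05, edgeR). Npm1 (chr11:33152498-33164142) encodes nucleophosmin, a chaperone of the outer nucleolar zone. It was at 3152 and 3434 CPM with shFto-1, 3902 and 4232 CPM with shFto-2, and 1705 and 1638 CPM with shNC cells (log2 fold change 1.13 ± 0.07, adjusted p = 2.84e-05, edgeR). The genome holds processed copies of Npm1 and of many ribosomal protein genes, so counts of those genes are uncertain to the extent that reads were split among copies.

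Mybbp1a, a nucleolar protein that binds MYB and RNA polymerase I, was at 879.8 and 946 CPM with shFto-1, 1183 and 1335 CPM with shFto-2, and 435 and 421 CPM with shNC cells (log2 fold change 1.33 ± 0.09, adjusted p = 2.84e-05, edgeR). Nolc1, a chaperone that escorts snoRNPs, rose by 1.34 on the log2 scale, Ddx21, a helicase of ribosomal RNA transcription and processing, by 1.12, and Gnl3, which encodes nucleostemin, by 0.94.

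Of the 12 small subunit factors, 12 rose, with log2 fold changes of 0.79 (Noc4l) to 1.51 (Bysl). Utp20, a large scaffold protein of the processome, was at 327 and 354 CPM with shFto-1, 467 and 479 CPM with shFto-2, and 146 and 158 CPM with shNC cells (log2 fold change 1.39 ± 0.09, adjusted p = 2.83e-05, edgeR). Ltv1, a late assembly factor that leaves with the cytoplasmic particle, was at 167 and 171 CPM with shFto-1, 206 and 200.4 CPM with shFto-2, and 78.9 and 81.7 CPM with shNC cells (log2 fold change 1.20 ± 0.09, adjusted p = 3.14e-05, edgeR). Neither gene's groups overlapped. Bysl, the bystin gene, known in yeast as Enp1, had 143 and 138 CPM with shFto-1, 189.9 and 188 CPM with shFto-2, and 47.5 and 64.3 CPM with shNC cells. Rrp12, an export factor, and Rrp9, a protein of the U3 snoRNP, rose by 1.39 and 1.38 on the log2 scale. The processome proteins Heatr1, Wdr43 and Nop14 rose by 0.99, 0.92 and 1.05, the helicase Ddx10 by 0.99, and the late factors Tsr1 and Nob1, of which Nob1 makes the last cut of 18S ribosomal RNA, by 1.06 and 0.92.

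Of the 12 large subunit factors, 12 rose, with a narrower range of 0.98 (Wdr12) to 1.31 (Mrto4). Bop1 (chr15:76452988-76477249) forms a complex with Pes1 and Wdr12 that is needed to mature large subunit ribosomal RNA. It was at 146 and 125 CPM with shFto-1, 168 and 173 CPM with shFto-2, and 81.4 and 68.5 CPM with shNC cells (log2 fold change 1.04 ± 0.11, adjusted p = 0.000117, edgeR), and Pes1 and Wdr12 rose by 1.07 and 0.98. The complex's genes thus rose by like amounts. Noc2l, which is related to a yeast factor for transport of precursor particles, was at 919 and 978 CPM with shFto-1, 1198 and 1228 CPM with shFto-2, and 481 and 422 CPM with shNC cells (log2 fold change 1.25 ± 0.09, adjusted p = 2.84e-05, edgeR). Mrto4, known in yeast as a placeholder for a stalk protein, was at 130.5 and 128 CPM with shFto-1, 135 and 149.5 CPM with shFto-2, and 57.5 and 52.3 CPM with shNC cells (log2 fold change 1.31 ± 0.10, adjusted p = 3.69e-05, edgeR). The remaining 7 were Nop16 (1.27), Rrp1b (1.22), Rrs1 (1.17), Noc3l (1.13), Ppan (1.08), Nop2, a methyltransferase of 28S ribosomal RNA (1.04), and Wdr74 (1.03), each given as its log2 fold change.

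Each line was also set against the same shNC libraries, which the comparisons share. Beside shFto-2 cells 40 of 40 genes rose (edgeR; 20.4% of all tested genes), with a median log2 fold change of 1.29. Called rises of at least 2-fold were 37 of the 40 and 841 of the 12824 tested genes. Beside shFto-1 cells 39 of 40 rose (edgeR; 15.4% of all tested genes), with a median of 0.95. Here 15 of the 40 and 375 of the 12824 tested genes had a called rise of at least 2-fold. Nop10 had a log2 fold change of 0.52 beside shFto-1 cells (edgeR adjusted p = 0.0534). The lines were then compared directly. T cells beside shFto-2 had higher levels than those beside shFto-1 for 4 genes (edgeR; 0.491% of all tested genes): Utp20 (log2 fold change 0.47, adjusted p = 0.0400), Mybbp1a (0.46, adjusted p = 0.0434), Heatr1 (0.44, adjusted p = 0.0457) and Ncl (0.40, adjusted p = 0.0257). The estimate was above 0 for all 40 genes, with a median of 0.33, and for 38 genes both shFto-2 libraries lay above both shFto-1 libraries, which held for 23.5% of all tested genes. The number of calls between the lines was not stable: it was 29 by DESeq2 (4.17% of all tested genes), 22 by limma-voom (3.1%) and 1 when only those 4 libraries were fitted (0.234%). With 1 library left out, the median of the 40 estimates between the lines was 0.28 to 0.34.

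**Figure D2:**
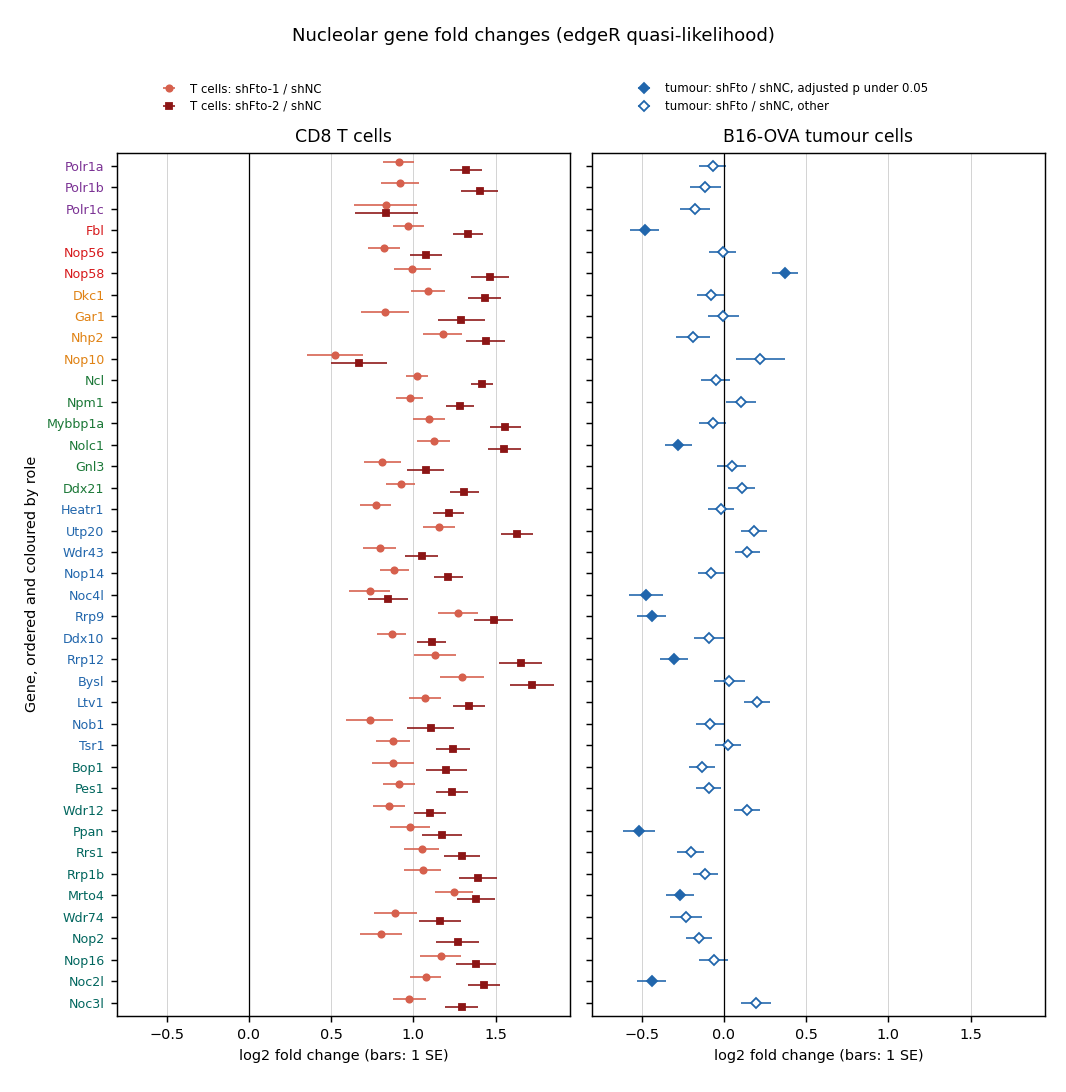
Log2 fold change of each of the 40 genes, with bars of 1 SE, in T cells beside shFto-1 (circles) and shFto-2 cells (squares) over shNC on the left, and in shFto over shNC tumour cells on the right. T cell values lie between 0.52 and 1.72, while tumour cell values lie between -0.52 and 0.37, with filled diamonds for the 9 genes that passed an adjusted p of 0.05.

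Other genes of the pathway, taken from a list of 113, had changes in the same direction in T cells, with a lower median. Of these, 104 rose and 0 fell by edgeR, with a median log2 fold change of 0.84; no gene of the 113 fell at an unadjusted p under 0.05 or by DESeq2 or limma-voom. Rrp8, a nucleolar protein of the methyltransferase type, was at 43.2 and 42.2 CPM with shFto-1, 59.9 and 62.2 CPM with shFto-2, and 10.7 and 7.83 CPM with shNC cells (log2 fold change 2.53). Pwp2, a processome protein, and Dis3, a nuclease of the exosome, rose by 1.35 and 1.22 on the log2 scale. Factors and other subunits of RNA polymerase I had 11 of 12 genes that rose, with a median of 0.73. Cytosolic ribosomal proteins are what this machinery loads onto ribosomal RNA, and 22 of 74 tested genes for them rose and 0 fell, with a median of 0.25. For the mean of the lines 20.3% of all tested genes rose and 12.7% fell (edgeR). In this list 34 of 74 rose beside shFto-1 (median 0.42), where 15.4% of all tested genes rose. Beside shFto-2 13 of 74 rose (median 0.11), a share below the 20.4% of all tested genes. For shFto-2 against shFto-1 the estimate was below 0 for 69 of the 74, with a median of -0.29, where it was above 0 for all 40 nucleolar genes. Of the 74, 0 were called by edgeR, 8 were lower by DESeq2 and 13 by limma-voom, and 32 were lower at an unadjusted p under 0.05 (edgeR). Of all 12824 tested genes, 182 were lower by edgeR, 553 by DESeq2 and 574 by limma-voom. At an unadjusted p under 0.05, 1195 of all tested genes were lower (edgeR). The list summed to 102265 and 83403 CPM with shFto-1, 77234 and 77331 CPM with shFto-2, and 74521 and 65156 CPM with shNC cells. Replicate 1 of shFto-1 stood above the rest, and without it the median between the lines was -0.09. For the mean of the lines, 20 cytosolic genes rose without that library, 37 without replicate 2 of shFto-1 and 11 without replicate 2 of shNC. Mitochondrial ribosomes, by contrast, are assembled in mitochondria on their own ribosomal RNA, and of 76 tested genes for their proteins 57 rose and 0 fell, with a median of 0.66. At an unadjusted p under 0.05 no gene of either list fell, nor did one by DESeq2 or limma-voom, by which 17 and 39 cytosolic genes rose. Scaled by library totals in place of TMM, 10 cytosolic genes rose and 1 (Rps21) fell, with a median of 0.08, and 42 mitochondrial genes rose and 0 fell, with a median of 0.48. Differences between these lists were not tested. Myc, whose product is known to drive many of these genes, was at 1140.3 and 1170.4 CPM with shFto-1, 1184 and 1248 CPM with shFto-2, and 844 and 716 CPM with shNC cells (log2 fold change 0.61, adjusted p = 0.000504, edgeR). Of 9 tested genes of the MYC network, Myc, Mga and Mlx rose by edgeR and 4 were not called. Mxd4 and Mxi1 fell by 1.46 and 0.81 on the log2 scale. The groups of Mga overlapped, with replicate 1 of shFto-1 at 233.0 CPM and the shNC libraries at 239 and 234 CPM. With library totals 1 of these 9 genes rose and 3 fell, and without replicate 2 of shNC 1 rose and 2 fell.

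**Figure D3:**
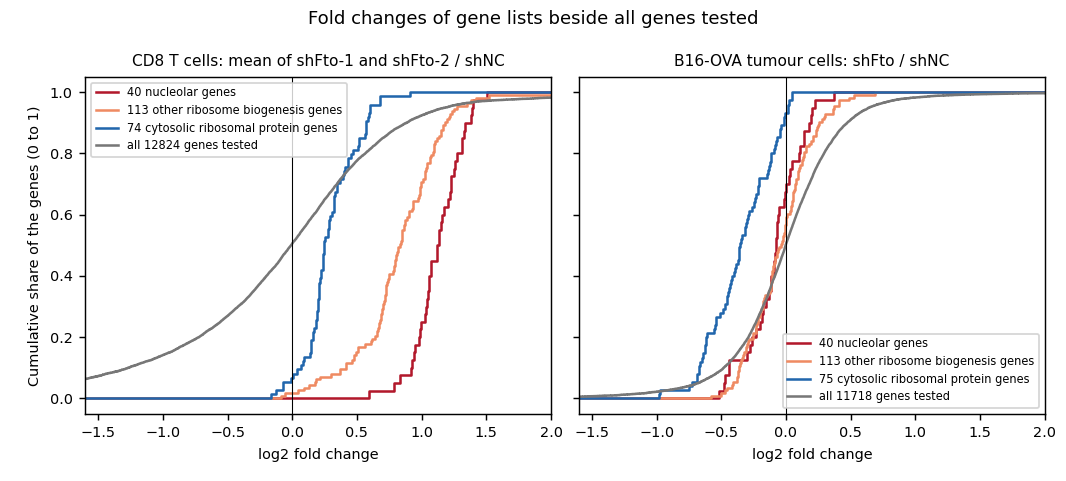
Cumulative share of genes against log2 fold change, for the 40 nucleolar genes, 113 other ribosome biogenesis genes, the cytosolic ribosomal protein genes and all genes tested, in T cells (left) and tumour cells (right). In T cells the nucleolar genes have a median of 1.12, the other biogenesis genes 0.84 and the ribosomal protein genes 0.25; in tumour cells the medians are -0.08, -0.04 and -0.36.

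In the tumour cells that carried the knockdown, most nucleolar genes did not pass the test. Of the 40, 1 rose, 8 fell and 31 were not called (edgeR), where 15.9% of the 11718 tested genes rose and 16.9% fell. As shares of the 40 these were 2.5% that rose, below that of all tested genes, and 20% that fell, near it. The median log2 fold change was -0.08 over the 40 genes and -0.003 over all tested genes, and 28 of the 40 estimates were below 0. None of the 40 changed 2-fold, while 164 of the 11718 tested genes rose and 217 fell by at least that much (edgeR). The 40 genes summed to 11768 to 12203 CPM in shFto cells and to 12162 to 12671 CPM in shNC cells. All 9 called genes rose in T cells, as did all 40, so this does not relate the 2 responses. Tumour and T cell libraries were scaled apart and the difference between them was not tested. Across the 40 genes, the tumour and T cell log2 fold changes had a Pearson's r of -0.14 and a Spearman's rho of -0.14, given as a description over genes of 1 pathway that are not independent.

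The only member that rose in tumour cells was Nop58, at 371, 383 and 339 CPM in shFto cells and 288, 277 and 280.4 CPM in shNC cells (log2 fold change 0.37 ± 0.08, adjusted p = 0.00146, edgeR). Its box C/D partner Fbl went the other way, at 212, 197 and 212 CPM in shFto cells and 291, 257 and 319.9 CPM in shNC cells (log2 fold change -0.48 ± 0.09, adjusted p = 0.000326, edgeR). Neither gene's groups overlapped. Nop56, the third core protein listed, had a log2 fold change of -0.01.

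Ppan, a large subunit factor related to the yeast Ssf proteins, was at 104, 90.9 and 121 CPM in shFto cells and 157, 137 and 160.2 CPM in shNC cells (log2 fold change -0.52 ± 0.10, adjusted p = 0.000485, edgeR). Noc2l was at 395, 362 and 450.4 CPM in shFto cells and 568, 554 and 516 CPM in shNC cells (log2 fold change -0.44 ± 0.09, adjusted p = 0.00091, edgeR). Every shFto library was below every shNC library for both. Among small subunit factors, Rrp9 was at 62.2, 61.7 and 71.6 CPM in shFto cells and 91.1, 84.5 and 90.2 CPM in shNC cells (log2 fold change -0.44 ± 0.09, adjusted p = 0.000732, edgeR). Noc4l was at 36.1, 34.8 and 43.4 CPM in shFto cells and 54.4, 53.3 and 51.6 CPM in shNC cells (log2 fold change -0.47 ± 0.10, adjusted p = 0.00148, edgeR). Again no libraries of the 2 groups overlapped.

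Smaller falls were called for Rrp12 (log2 fold change -0.30, adjusted p = 0.0111, edgeR), Mrto4 (-0.26, adjusted p = 0.0233) and Nolc1, which was at 474, 443 and 493 CPM in shFto cells and 588, 578 and 543 CPM in shNC cells (-0.28 ± 0.08, adjusted p = 0.0126). These 3 calls are the fragile ones. Nolc1 lost the threshold without shFto replicate 1 (edgeR adjusted p = 0.0648), shFto replicate 2 (0.0606) or shNC replicate 1 (0.0799). Rrp12 lost it without shFto replicate 1 (0.0940), shNC replicate 1 (0.0544) or shNC replicate 2 (0.0564). Mrto4 lost it without shFto replicate 1 (0.0919), shFto replicate 2 (0.0714), shNC replicate 1 (0.0595) or shNC replicate 3 (0.117).

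The remaining 31 genes were not called in tumour cells. Ncl was at 3177, 3429 and 3104 CPM in shFto cells and 3379, 3593 and 3081 CPM in shNC cells, so that the groups overlapped (log2 fold change -0.05 ± 0.09, adjusted p = 0.707, edgeR). Npm1 was at 1546, 1807 and 1448 CPM in shFto cells and 1497, 1396 and 1574 CPM in shNC cells (0.10 ± 0.09, adjusted p = 0.420, edgeR). Polr1a had 350.3, 329 and 338 CPM in shFto cells and 374, 368 and 325 CPM in shNC cells (-0.07 ± 0.08, adjusted p = 0.552, edgeR). Bop1 had no overlap between groups, at 229.8, 253 and 245 CPM in shFto cells and 269, 258 and 271 CPM in shNC cells, but missed the threshold (-0.13 ± 0.08, adjusted p = 0.201, edgeR). Over the 40 genes the groups did not overlap for 6 with higher and 14 with lower levels in shFto cells, which are 15% and 35% of the 40, against 22.5% and 22.7% of all tested genes. The polymerase subunits Polr1b and Polr1c had log2 fold changes of -0.11 and -0.18, the box H/ACA genes Nhp2 and Nop10 had -0.19 and 0.22, and Ddx21 had 0.11, all with overlapping groups. With all libraries, neither the polymerase nor the box H/ACA genes held a call by edgeR, DESeq2 or limma-voom. None of these 7 genes reached an unadjusted p under 0.05. Some calls were gained when a library was left out. Without shFto replicate 3 Nop10 (log2 fold change 0.38, adjusted p = 0.0270, edgeR) and Ltv1 (0.22, adjusted p = 0.0452) were higher, and Rrs1 (-0.28, adjusted p = 0.00873) was lower. Ltv1 was also higher without shNC replicate 3 (adjusted p = 0.0444), and Wdr74 lower without shNC replicate 2 (adjusted p = 0.0461).

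The other 113 biogenesis genes gave a like picture in tumour cells, with 13 that rose, 25 that fell and a median log2 fold change of -0.04 (edgeR). Over all tested genes 15.9% rose and 16.9% fell. Nmd3, an export adaptor of the large subunit, had the smallest adjusted p of those that rose, at 90.9, 93.7 and 78.5 CPM in shFto cells and 56.1, 50.2 and 57.0 CPM in shNC cells (log2 fold change 0.69). Rrn3, an initiation factor of RNA polymerase I, and Rsl1d1, a nucleolar protein, rose by 0.53 and 0.41 on the log2 scale. Nhp2l1, a protein of the box C/D core and the spliceosome, Tcof1, the treacle gene, and the helicase gene Ddx51 fell by 0.58, 0.47 and 0.45. Of 75 cytosolic ribosomal protein genes 44 fell and 0 rose, with a median of -0.36, and none rose at an unadjusted p under 0.05 or by DESeq2 or limma-voom, by which 43 and 44 fell. Without replicate 3 of shNC 37 fell, with a median of -0.22. Their summed level was 43403 to 51234 CPM in shFto cells and 56619 to 71684 CPM in shNC cells. Myc had a log2 fold change of -0.10 (adjusted p = 0.372, edgeR).

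Marks of N6-methyladenosine (m6A), the RNA modification that FTO can remove, were read from the authors' peak lists, in which the fold is the peak caller's enrichment of antibody over input. The lists came from 1 antibody library per condition, so differences between them had no test. A peak lay on 19 of the 40 genes in shFto cells, 19 in Dac51-treated cells and 18 in shNC cells, against 53.6%, 49.9% and 44.2% of the 11718 genes tested for RNA. Merged, the 3 lists held 34 separate peak regions on 24 of the genes, of which 15 regions, on 14 genes, were in every list. Those 14 genes were Polr1b, Ncl, Nolc1, Ddx21, Ddx10, Rrp12, Bysl, Nob1, Tsr1, Rrs1, Rrp1b, Mrto4, Nop2 and Noc3l. Wdr43 and Noc2l had a peak in shFto and Dac51-treated cells and none in shNC cells, and 16 genes, among them Fbl, Npm1, Mybbp1a, Bop1 and all 4 box H/ACA genes, had none in any list. Of all tested genes, 40.4% had a peak in every list, 5.85% in the shFto and Dac51 lists alone and 41.1% in none, so that the 14, 2 and 16 of 40 were near or below those shares.

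The strongest enrichment was on Rrs1, a large subunit factor that helps to place the 5S particle, encoded at chr1:9545408-9547455. Its peak at chr1:9545972-9546980 (mm10) had a fold of 38.5 in shFto cells, 40.9 in Dac51-treated cells and 26.2 in shNC cells. Bysl had the next highest fold in shFto cells, with a peak at chr17:47601302-47601780 and folds of 25.6 in shFto cells, 14 in Dac51-treated cells and 9.62 in shNC cells. Both were higher in shFto and Dac51-treated cells than in shNC cells. The Nop2 peak at chr6:125144336-125144753, which reaches the end of the gene, had folds of 10.9 in shFto cells, 5.39 in Dac51-treated cells and 3.23 in shNC cells. Rrp12 did not share that order and came after Rrs1 in Dac51-treated and shNC cells, with 8.89 in shFto cells, 29.1 in Dac51-treated cells and 17.2 in shNC cells at chr19:41862941-41863241. Ncl, the most counted of these genes, had 6.63 in shFto cells, 5.71 in Dac51-treated cells and 4.71 in shNC cells at chr1:86350283-86350876.

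Where a peak of shFto cells overlapped one of shNC cells, the fold was higher in shFto cells for 14 of 17 pairs on nucleolar genes and for 80.1% of pairs on all tested genes, with median ratios of 1.48 and 1.49. Rrs1 enters these pairs more than once, because the shNC list held another peak of fold 1.47 within its region. With each region counted once, at its highest fold, 13 of 16 regions were higher in shFto cells than in shNC cells and 13 of 15 were higher in Dac51-treated cells than in shNC cells. Where a peak of Dac51-treated cells overlapped one of shNC cells, it was higher in Dac51-treated cells for 14 of 16 pairs and for 78.0% of all pairs, with median ratios of 1.61 and 1.45. The shift on the nucleolar genes was therefore near that of all genes, and both comparisons use the same shNC list. Nob1 was lower in both, with 4.89 in shFto cells, 7.39 in Dac51-treated cells and 9.56 in shNC cells. In the RNA of tumour cells, 1 of the 24 genes with a peak in any list rose and 5 fell, and of the 16 without a peak 0 rose and 3 fell (edgeR; of the 16, Ltv1 was higher at an unadjusted p under 0.05, and 0 by DESeq2 or limma-voom), with a median log2 fold change of -0.08 in each. Among all tested genes, 1245 of 6906 with a peak rose and 1089 fell (median 0.02), and 619 of 4812 without a peak rose and 888 fell (median -0.03).

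**Figure D4:**
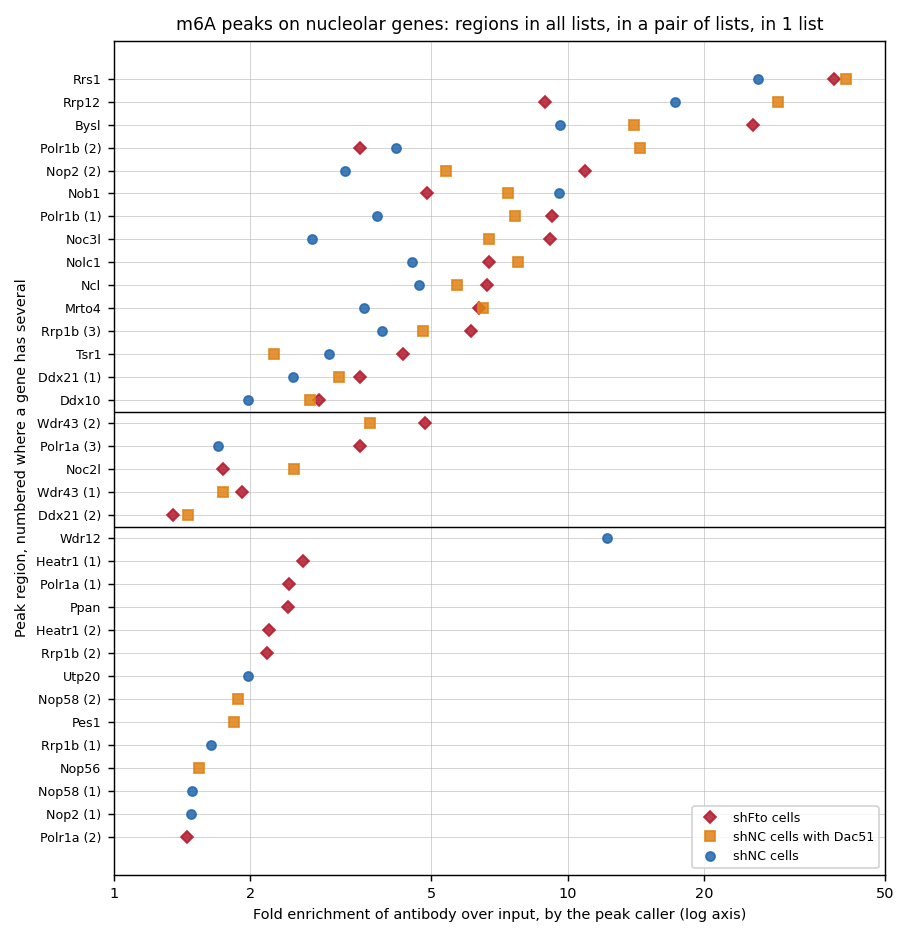
Fold enrichment of antibody over input (log axis), as given by the peak caller, for the 34 m6A peak regions on nucleolar genes, in shFto cells (diamonds), Dac51-treated shNC cells (squares) and shNC cells (circles), 1 library each. Lines part the 15 regions in every list from those in a pair of lists and in 1 list; Rrs1 is the highest, at 26.2 to 40.9.

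Open chromatin was present at the start of these genes in the tumour cells. The start window, 250 bases before to 50 after the start site, was known from RefSeq (GRCm38.p6) for 35 of the 40 genes, and those 35 had an ATAC-seq peak in all 3 shFto and all 3 shNC libraries, against 89.5% of the 8949 tested genes with a window. Bop1, Fbl, Npm1, Rrp12 and Rrs1 had no entry. Letters were then counted by gene, where a match in any window of a gene sufficed. The E-box CACGTG, the letters that MYC is known to bind, occurred for 7 of the 35 genes (20%). It occurred for 12.2% of the tested genes with a window and for 8.09% of all 27025 genes with a window. The letters CCGGAAG, searched on both strands as the core that ETS factors are known to bind, occurred for 13 of 35 genes (37.1%). They occurred for 21.3% of tested genes with a window and 9.93% of all genes with a window. TGACGTCA, the letters that CREB factors are known to bind, occurred for 2 of 35 genes (5.71%). They occurred for 3.72% of tested genes with a window and 2.03% of all genes with a window. A match is a description of the letters and not of a bound site.

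The 7 windows with an E-box are shown for the place of the letters, which in all but Nop2 is just after the start site. All 40 genes rose in T cells, so the rise of these 7 does not set them apart. Each run is 120 bases, of which 70 lie before the start site and 50 from it on, read 5′ to 3′ on the gene's strand, with the E-box in capitals (RefSeq, GRCm38.p6). The coordinates are chr11:72441257-72441376 (plus strand) for Mybbp1a, chr10:88826765-88826884 (minus) for Utp20, chr10:13193088-13193207 (minus) for Ltv1, chr11:74898010-74898129 (plus) for Tsr1, chr17:71616145-71616264 (plus) for Wdr43, chr11:3963905-3964024 (plus) for Pes1 and chr6:125131813-125131932 (plus) for Nop2.
Mybbp1a: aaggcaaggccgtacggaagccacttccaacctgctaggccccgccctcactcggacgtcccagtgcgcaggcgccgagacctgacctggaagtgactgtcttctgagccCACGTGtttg
Utp20: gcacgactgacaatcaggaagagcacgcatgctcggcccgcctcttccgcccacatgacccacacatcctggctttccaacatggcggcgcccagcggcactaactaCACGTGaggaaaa
Ltv1: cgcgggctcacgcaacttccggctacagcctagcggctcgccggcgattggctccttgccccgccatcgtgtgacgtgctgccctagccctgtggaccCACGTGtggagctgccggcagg
Tsr1: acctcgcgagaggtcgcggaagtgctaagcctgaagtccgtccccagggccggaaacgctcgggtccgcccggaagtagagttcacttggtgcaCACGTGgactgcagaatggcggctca
Wdr43: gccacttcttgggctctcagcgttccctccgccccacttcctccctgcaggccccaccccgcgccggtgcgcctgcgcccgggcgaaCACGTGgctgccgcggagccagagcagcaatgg
Pes1: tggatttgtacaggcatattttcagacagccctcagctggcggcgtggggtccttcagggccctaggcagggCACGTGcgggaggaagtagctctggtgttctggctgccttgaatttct
Nop2: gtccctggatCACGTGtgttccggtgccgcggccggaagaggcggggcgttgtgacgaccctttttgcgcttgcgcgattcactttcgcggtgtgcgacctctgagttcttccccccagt
The E-box begins 40 bases after the start site in Mybbp1a, 37 in Utp20, 28 in Ltv1, 24 in Tsr1, 17 in Wdr43 and 2 in Pes1, and 60 bases before it in Nop2. The log2 fold changes of these 7 genes in T cells were 1.33 for Mybbp1a, 1.39 for Utp20, 1.20 for Ltv1, 1.06 for Tsr1, 0.92 for Wdr43, 1.07 for Pes1 and 1.04 for Nop2, all within the range of the 40 genes. In tumour cells none of the 7 was called with all libraries (edgeR with TMM, DESeq2 and limma-voom). With library totals in place of TMM, edgeR called Ltv1 (adjusted p = 0.0188) and Utp20 (adjusted p = 0.0294) higher. It also called Ltv1 higher without shFto replicate 3 (adjusted p = 0.0452) or shNC replicate 3 (adjusted p = 0.0444).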

How the data were processed

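The authors deposited raw counts per gene symbol, with 1 column per RNA library, per the file headers. For each m6A peak, exomePeak's antibody-to-input ratio (a fold enrichment) was deposited by the authors along with its p-value. Scores, on a log10 scale, of that p-value and of the FDR stand beside them, per the file headers. Each ATAC-seq library has its own peak list, in which the authors deposited a score, a fold enrichment, and the significance as -log10 p and q values. The submitters' processing notes name STAR 2.7.0f, Bowtie2 2.3.5, MACS2 2.1.3, Trim Galore 0.6.0, Picard, deepTools and the build mm10. The counting tool, its strand setting and the annotation are not given in the sources used here, so overlapping and antisense genes cannot be told apart. The m6A input libraries were not used here.

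The main test was edgeR's quasi-likelihood test (version 4.0.16, R 4.3.3) on TMM-scaled counts after edgeR's own filter on low counts, with Benjamini-Hochberg adjustment over every gene tested and a threshold of 0.05. The 6 tumour libraries and the 6 T cell libraries were fitted apart, and the T cell contrasts came from 1 fit. CPM are per TMM-scaled library size. Alternatives used DESeq2 1.42.0 and limma 3.58.1 (voom), other scalings and filters, a replicate block and fits without each library. The spread between libraries, as edgeR's common coefficient of variation, was 0.0906 (tumour) and 0.199 (T cells). On simulated data with 200 changed genes, the tumour comparison recovered 88.7% of 2-fold and 99.0% of 4-fold changes among 11718 genes, with 5.18% of calls false. The T cell comparison recovered 63.6% and 73.9% among 12824 genes, with 6.43% of calls false. The data themselves gave more calls, 3841 (tumour) and 4220 (T cells, mean of the lines). These rates therefore describe the simulated setting and may not hold for the data.

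Peaks were joined to genes by the symbol in the m6A lists and to start windows by an overlap of at least 1 bp, with Python 3.11.15, pandas 2.3.3 and NumPy 2.4.6. Figures were drawn with Matplotlib 3.10.9. The 40 genes and the other lists were chosen with earlier results of these data known. Genes with full values are up to 2 per role and comparison with the smallest adjusted p, plus Ncl, Npm1, Fbl, Polr1a and Bop1. Other pathway genes named are up to 3 per comparison and direction by the same rule, with Fto and Myc. Bysl, Nop10 and the MYC network genes were given values after they were seen.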

Additional observations from a re-analysis of the deposited data

Results flagged for a closer look

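Among T cells, 4 nucleolar genes differed between the knockdown lines in a direct edgeR test of shFto-2 against shFto-1, each higher in both libraries beside shFto-2 cells. The log2 fold changes were 0.396818 for Ncl (adjusted p = 0.0257), 0.464233 for Mybbp1a (adjusted p = 0.0434), 0.442531 for Heatr1 (adjusted p = 0.0457) and 0.474377 for Utp20 (adjusted p = 0.0400). Heatr1 was at 527 and 569 CPM with shFto-2 cells and at 389 and 418 CPM with shFto-1 cells. All 4 rose beside each line when set against shNC cells, whose libraries both comparisons share. How the number of such genes moves with the processing is given under the next heading.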

How the results depend on the processing

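In T cells the counts of nucleolar genes that rose stayed at 38 to 40 for the lines' mean and for each line under every alternative run. TMM set the level: with library totals in its place the median over all T cell genes moved by -0.17 on the log2 scale, and the median of the 40 genes was 0.96 for the lines' mean, 0.78 beside shFto-1 and 1.12 beside shFto-2. Over all called genes, the share that rose was 42.8% with library totals and 61.5% with TMM in T cells, and 59.96% with library totals and 48.5% with TMM in tumour cells. Library totals called 4 nucleolar genes higher in shFto tumour cells in place of 1, adding Utp20, Ltv1 and Noc3l, and no longer called Mrto4 (adjusted p = 0.0610). Leaving out 1 library at a time gave 1 to 3 higher and 5 to 9 lower nucleolar genes in tumour cells. Among the other 113 biogenesis genes it gave 8 to 16 higher and 12 to 27 lower. Calls over all tested genes moved as well in these fits, to 1222 to 2123 higher and 1246 to 2300 lower. With all tumour libraries they were 1864 and 1977. The 4 genes higher beside shFto-2 than beside shFto-1 became 29 by DESeq2, 22 by limma-voom, 16 with no filter, 7 with a filter of 5 CPM, 2 with RLE factors, 1 with library totals, 1 in the fit of those 4 libraries alone and 0 to 9 when 1 library was left out. No called value changed sign, while 33 values without a call did. The cause was not tested. With the replicate block the tumour calls were 1 higher and 8 lower. The T cell calls were then 40 for the lines' mean, 39 beside shFto-1 and 40 beside shFto-2. The calls between the lines were 10 in place of 4, and over all tested genes 102 in place of 63. In tumour cells same-numbered libraries deviated together with correlations of 0.01, 0.04 and -0.02. In T cells the values were 0.37 between the shFto lines, and -0.32 and -0.21 between shNC and shFto-1 or shFto-2. With 2 libraries a group, differently numbered T cell libraries have the same values with the opposite sign. Whether the T cell libraries were paired therefore cannot be told from these values. Stricter m6A settings left 17 to 18 genes with a peak in shFto cells, 16 to 18 in Dac51-treated cells and 13 to 18 in shNC cells. An ATAC-seq peak over at least 50% of the start window was found for 33 of 35 genes. The shares of all tested genes at these stricter settings were not counted, so these counts have no reference. The T cell comparison rests on 2 libraries a group, the shallowest of 2628158 counts, and m6A on 1 library a condition with unknown depth, which limits both.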
